A study of Orbicella faveolata with 18 samples.

Results

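Embryos of the Caribbean reef-building coral Montastraea faveolata that were kept at 31.5°C or at 29.0°C were compared 12 hours after fertilization. The comparison rests on 6 of the 18 arrays of the series, 3 at 31.5°C and 3 at 29.0°C, and a clone was included where no more than 1 array per temperature lacked a ratio for it, which was so for 1217 of the 1218 clones in the series table. Eggs were fertilized at 30.0°C, moved to the treatment temperature 2 hours later, and carried no algal symbionts. The study treats 29.0°C as an ordinary and 31.5°C as an elevated temperature. Gametes came from several colonies, so the embryos were of mixed parentage in both groups. For each temperature the embryos of several containers were pooled into 1 RNA sample, which was hybridised on 3 technical arrays. Every difference below therefore compares 1 RNA sample with 1 other, the SDs and limits hold hybridisation error only, and no p-value is given. The source names in the labels give 32 and 30°C for the same samples that the titles place at 31.5 and 29.0°C, and the titles are used here.

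Each array carried spotted cDNA clones, the embryos' RNA labelled with Cy5 and a pooled reference labelled with Cy3. A clone's value is the log2 ratio of both, so that a value below 0 means less signal in the embryos than in the pool, and the pool cancels in a difference between temperatures. A difference of 1 on this scale is a 2-fold change. For each clone the mean at each temperature received a 95% interval from 1 spread pooled over all arrays, and the sum of both half-widths is called the clone's limit. A clone was counted as higher or lower at 31.5°C where its difference passed this limit. Where a call is said to hold in 14 alternatives, these are centring, scaling, linear ratios, a replicate block, 3 other sources of the spread, limma and the omission of each of the 6 arrays. Scaling together with the omission of replicate 1 of 31.5°C is not among them.

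Early animal embryos run at first on RNA and protein that the mother stored in the egg, and build up their own transcription as they divide. Ribosomal proteins and translation factors make the machinery for protein synthesis, the mitochondrial respiratory chain and ATP synthase supply its energy, and histones package the new DNA of each division. Warm water speeds development in some coral species, and heat is also the best-known stress on corals, with chaperones, antioxidant enzymes and protein degradation as its classical responses.

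The 6 arrays were of unequal quality. Between 1203 and 1218 clones had a value per array, 2818 to 3134 spots had a usable intensity in both channels, and a median spot exceeded its background 4.45- to 8.29-fold in Cy3 and 5.01- to 8.22-fold in Cy5. Arrays of 29.0°C correlated at 0.89 to 0.94 with each other across clones, as did replicates 2 and 3 of 31.5°C at 0.89. Replicate 1 of 31.5°C correlated with its companions at only 0.55 and 0.57 and held 21 clones above a log2 ratio of 2, against at most 4 on the other 5 arrays. The spread of ratios also differed among the arrays, with a median absolute deviation of 0.39, 0.26 and 0.25 at 31.5°C, against 0.35, 0.37 and 0.37 at 29.0°C. A narrower spread brings every clone closer to the pool, so main counts are also given after each array was scaled to the same spread, and without replicate 1 of 31.5°C.

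**Figure D1:**
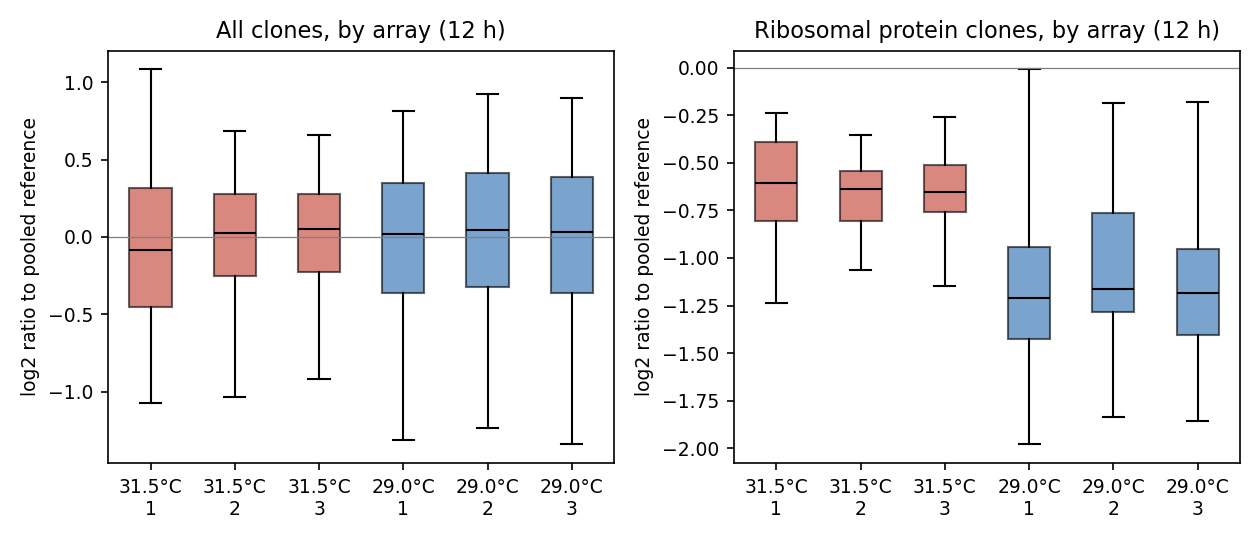
Log2 ratio to the pooled reference (vertical axis) on each of the 6 arrays after 12 hours, for all clones (left) and for the 41 ribosomal protein clones (right). Boxes span the quartiles with the median as a line, and whiskers the 5th to 95th percentile; replicates 2 and 3 of 31.5°C had the narrowest spread, and the ribosomal protein clones had medians of -0.61, -0.64 and -0.65 at 31.5°C, against -1.21, -1.16 and -1.18 at 29.0°C.

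Of the 1217 clones, 196 (16.1%) passed their limit, 114 (9.37%) higher and 82 (6.74%) lower at 31.5°C. The median size of their differences was 0.58 on the log2 scale, against 0.26 over all clones tested, so most changes were well below 2-fold. On all 6 arrays 1195 clones had values, and in 484 (40.5%) of these the arrays of one temperature lay entirely above those of the other, with 31.5°C above in 19.7%. The same was true of 187 of the 196 clones past their limit. With arrays scaled to one spread 124 clones passed (10.2%), 79 higher (6.49%) and 45 lower (3.7%). Without replicate 1 of 31.5°C 183 passed (15%), 122 higher (10%) and 61 lower (5.01%). Spots in the scanner output could be counted but not named. After print-tip loess 278 of 2860 spots were higher (9.72%) and 124 lower (4.34%), while median centring gave 109 higher (3.81%) and 97 lower (3.39%). With linear ratios 90 clones were higher and 93 lower, so the excess of higher clones was not seen on that scale.

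Most changes ran towards the level of the pool. Of the 114 higher clones 91 were closer to it at 31.5°C, and 107 lay below it at 29.0°C, with a median ratio of -0.24 at 31.5°C and -0.88 at 29.0°C. Of the 82 lower clones 63 were closer to the pool at 31.5°C, and 73 lay above it at 29.0°C, with a median of 0.04 at 31.5°C and 0.61 at 29.0°C. Over all 1217 clones 573 lay below the pool at 29.0°C and 644 above it. The calls were made from these same means, so the counts among called clones are partly set by the choice of clones. Replicates 2 and 3 of 31.5°C had the narrowest spread and replicate 1 the widest of the 6 arrays, and over all 1217 clones 769 were closer to the pool at 31.5°C. Whether such a spread comes from the embryos or from the hybridisation cannot be told apart with 1 RNA sample per temperature.

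**Figure D2:**
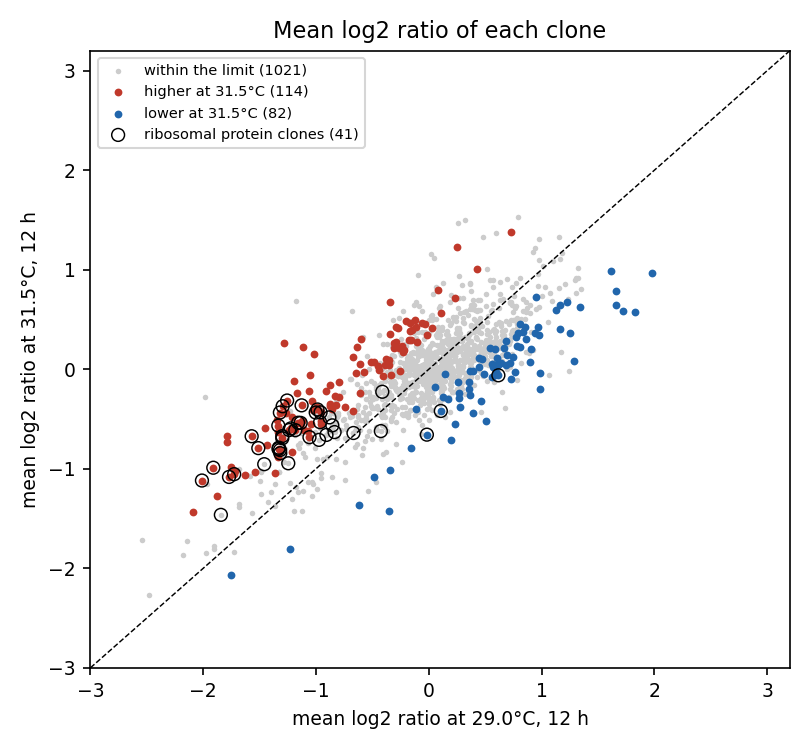
Mean log2 ratio of each clone over 3 arrays at 31.5°C (vertical axis) against that at 29.0°C (horizontal axis) after 12 hours, with equality as a dashed line. The 114 higher clones (red) lie mostly at negative ratios and the 82 lower clones (blue) mostly at positive ones, and 39 of the 41 ribosomal protein clones (open circles) had a mean below 0 at 29.0°C.

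Gene names were taken from the study's list of 538 annotated clones. That list was chosen on these same arrays for differing from 27.5°C in at least 1 condition, so a high share of called clones in it is not independent evidence. In it 170 clones passed (31.6%), 101 higher (18.8%) and 69 lower (12.8%) at 31.5°C, which is the level to read the gene groups against, while 26 of the 679 clones outside it passed (3.83%). A functional name was available for 89 of the 196 clones past their limit.

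Ribosomal protein clones formed the broadest group that differed. Of 41 clones, 22 were higher at 31.5°C (53.7%), 3 were lower (7.32%) and 16 did not pass, and the median difference was 0.54, against -0.00 over all clones and 0.02 over the annotated clones. The 22 were raised 1.30- to 1.92-fold, and none passed 2-fold. In 31 of the 41 clones the 3 arrays of 31.5°C all lay above those of 29.0°C. Both subunits took part, with 10 of 17 clones of the small and 11 of 23 clones of the large subunit higher. All 41 clones had a mean below 0 at 31.5°C, and 39 had one at 29.0°C.

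The count depended strongly on the spread of the arrays. After scaling, the medians of the 41 clones were -0.34, -0.65 and -0.72 at 31.5°C, against -0.89, -0.84 and -0.84 at 29.0°C, and the arrays still did not overlap. However, the median difference then was 0.27, and 7 clones were higher and 2 lower. With scaling and without replicate 1 of 31.5°C it was 0.14, with 3 clones higher and 3 lower. Leaving out that replicate without scaling gave 23 higher and 2 lower.

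Among the small-subunit proteins, which hold the messenger RNA and decode it, the clone of 40S ribosomal protein S14 (AOSF1155) had log2 ratios of -1.36, -0.95 and -0.66 at 31.5°C, against -1.98, -1.88 and -1.87 at 29.0°C. The difference was 0.92 with a limit of 0.39, and it was called in each of 14 other ways of computing it. The clone of 40S ribosomal protein S4 (AOSF1416) differed by as much, 0.92, but its arrays were less alike, with 0.06, -0.66 and -0.52 at 31.5°C, against -1.62, -1.22 and -1.05 at 29.0°C. Its limit was 0.67, and it fell short of it after scaling. Ribosomal protein S17e (AOSF939) had -0.28, -0.54 and -0.48 at 31.5°C, against -1.36, -1.24 and -1.36 at 29.0°C, a difference of 0.89. Ribosomal protein s18 (AOSC1015) had -0.39, -0.54 and -0.16 at 31.5°C, against -1.21, -1.01 and -1.16 at 29.0°C. Its difference of 0.77 was called in all 14 alternatives. The other small-subunit clones past their limit upwards were S15a, S19, S10 (AOSC475), S8, S9 and S16 (CAON1044), with differences of 0.38 to 0.63.

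The large subunit holds the site where the peptide bond is made and the tunnel through which the new chain leaves. The clone of 60S ribosomal protein L44 (CAON1209) had the largest rise of any named clone, with -0.26, -0.36 and -0.33 at 31.5°C, against -1.27, -1.22 and -1.28 at 29.0°C. The 3 arrays of each temperature lay within a narrow band, and the difference of 0.94, a 1.92-fold level, had a limit of 0.42. L14 (AOSF1264) had -0.58, -0.77 and -0.67 at 31.5°C, against -1.62, -1.48 and -1.61 at 29.0°C, a difference of 0.90. L18 (AOSC1063) had -0.94, -1.22 and -1.19 at 31.5°C, against -2.05, -1.91 and -2.07 at 29.0°C. Its difference was 0.89, but after scaling it was 0.42 and no longer passed. A clone whose annotation is given once as L15 and once as S27 (AOSF1141) differed by 0.77 with a limit of 0.26. Clones that share an annotation can be set side by side, and for S10 and S16, given below, they did not go the same way. Both clones of L15 were higher, by 0.72 (AOSF736) and 0.69 (CAOO1045), and both clones of L35a were higher, by 0.67 (AOSF1193) and 0.62 (CAON1901).

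The exceptions were 3 ribosomal clones that were lower at 31.5°C. Ribosomal protein S5 (CAON1341) had 0.05, 0.03 and -0.26 at 31.5°C, against 0.69, 0.51 and 0.66 at 29.0°C, a difference of -0.68. Ribosomal protein l3 (AOSC713) had -0.73, -0.62 and -0.62 at 31.5°C, against -0.01, 0.14 and -0.18 at 29.0°C, and its difference of -0.64 was called in all 14 alternatives. The third, a clone of S10 (CAON566), was lower by -0.53, while the other clone of S10 (AOSC475) was higher by 0.60. Its arrays overlapped, and without replicate 1 of 31.5°C it did not pass. S5 and this clone of S10 were the ribosomal clones with a mean above the pool at 29.0°C. For S16, likewise, 1 clone was higher by 0.38 (CAON1044) and the other had a difference of -0.20 within a limit of 0.39 (CAON533). Whether clones of 1 annotation come from 1 gene was not tested.

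Translation factors and proteins of ribosome assembly gave 3 higher and 1 lower clone of 13, with a median difference of 0.25. These calls were unchanged in number after scaling, but with replicate 1 of 31.5°C also left out 0 were higher and 1 lower. Elongation factor 1-alpha, which brings the charged transfer RNA to the ribosome, was represented by 4 clones that went different ways. AOSF1463 had -0.37, -0.60 and -0.56 at 31.5°C, against -1.35, -1.32 and -1.37 at 29.0°C, a rise of 0.84. CAOO902 had -0.63, -0.72 and -0.78 at 31.5°C, against 0.13, 0.26 and 0.19 at 29.0°C, a difference of -0.91 with a limit of 0.21. Both calls held in all 14 alternatives, but the first did not hold with scaling and the omission of replicate 1 of 31.5°C together. The other 2 clones differed by 0.29 (AOSC1120) and 0.25 (AOSF1493) and did not pass. The ribosome assembly proteins NHP2-like protein 1 (AOSF1077), which binds small nucleolar and spliceosomal RNAs, and RLP24 (CAON1092) were higher by 0.61 and 0.71. The other clone annotated as RLP24 (AOSF605) had a difference of 0.27 within a limit of 0.29.

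**Figure D3:**
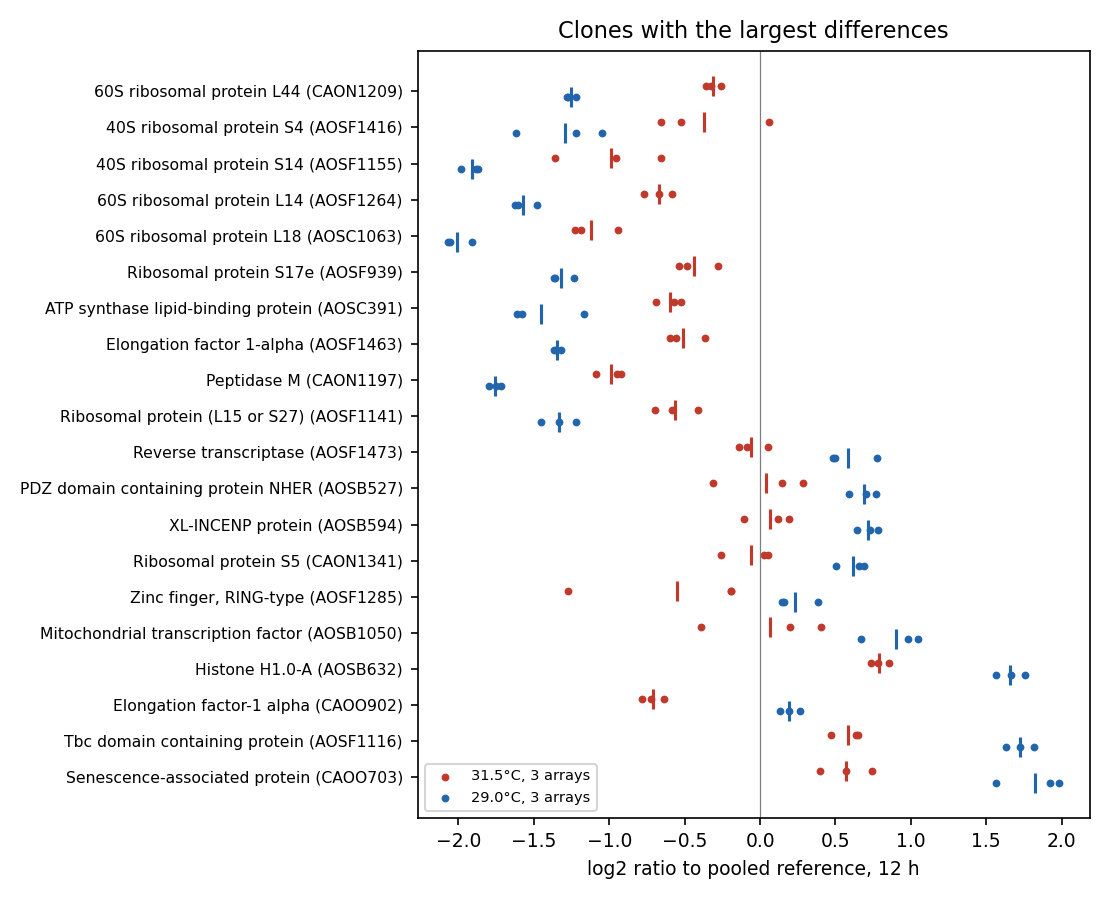
Log2 ratio to the pooled reference (horizontal axis) on each array after 12 hours, for the 10 largest rises and the 10 largest falls among clones with a functional name. Dots are arrays and vertical ticks the means of 3 arrays, with 31.5°C in red above 29.0°C in blue; the dots of both temperatures do not overlap in any of these clones, and replicate 1 of 31.5°C stands apart in AOSF1285, AOSB1050 and AOSF1416.

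In the group of respiratory chain and ATP synthase clones, which also counts cytochrome b5, 6 of 12 were higher (50%) and 0 lower. The median difference was 0.41. The medians of the 12 clones were -0.13, -0.16 and -0.18 at 31.5°C, against -0.47, -0.34 and -0.47 at 29.0°C. After scaling 4 remained past their limit upwards, and with replicate 1 of 31.5°C also left out 1 did, the hinge protein of complex III (CAOO440), by 0.38. The ATP synthase lipid-binding protein (AOSC391), a subunit of the proton-driven rotor, had -0.69, -0.57 and -0.52 at 31.5°C, against -1.17, -1.61 and -1.58 at 29.0°C. Its difference of 0.86, a 1.81-fold level, was called in all 14 alternatives. With scaling and the omission of replicate 1 of 31.5°C together it was 0.45 and did not pass. A second clone with this annotation (CAON1556) had a difference of 0.47 within a limit of 0.85. ATP synthase subunit b (CAON1087) and the f chain (AOSC720) were higher by 0.52 and 0.45. In complex III, which passes electrons from ubiquinol to cytochrome c, the hinge protein (CAOO440) was higher by 0.69 and 1 clone of cytochrome b (AOSF631) by 0.48. The other clone of cytochrome b (AOSF1328) had a difference of 0.19 within a limit of 0.35. The hinge protein had 0.83, 0.15 and 0.27 at 31.5°C, against -0.33, -0.13 and -0.35 at 29.0°C, and without the high value of replicate 1 its difference of 0.48 did not pass. Cytochrome b5 (CAON1668), an electron carrier of microsomal and outer mitochondrial membranes that is counted among the 6, was higher by 0.37. NADH-ubiquinone oxidoreductase 7 (CAON943), of complex I, differed by 0.03 within a limit of 0.30.

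**Figure D4:**
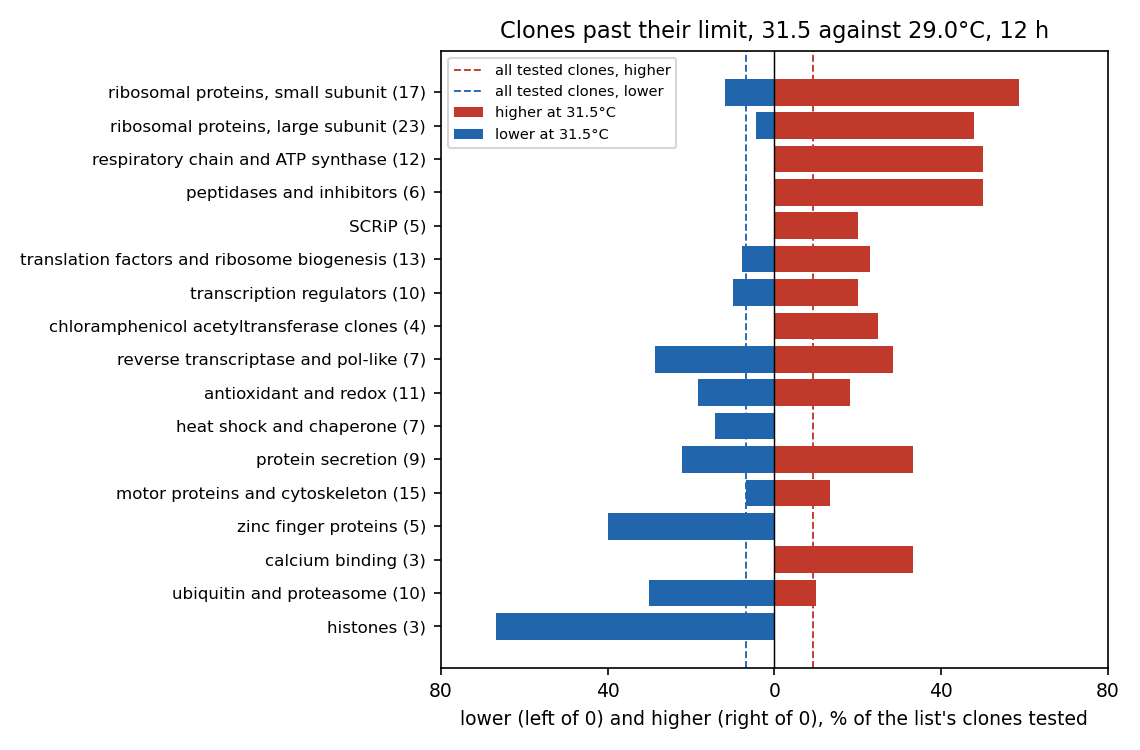
Share of the clones of each gene group that were higher (red, right of 0) or lower (blue, left of 0) at 31.5°C than at 29.0°C after 12 hours, in % of the group's clones tested, whose number stands in parentheses. Dashed lines give the shares over all 1217 clones, 9.37% higher and 6.74% lower; most named groups belong to a list chosen on these arrays, in which the shares were 18.8% and 12.8%.

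Of 3 histone clones 2 were lower. Histone H1.0-A (AOSB632), a linker histone that closes the turn of DNA on the nucleosome, had 0.74, 0.85 and 0.78 at 31.5°C, against 1.66, 1.56 and 1.76 at 29.0°C. The difference was -0.87 with a limit of 0.44, and it was called in all 14 alternatives. Histone H3.3 (AOSF1219), the variant placed outside replication, had 0.99, 0.98 and 0.98 at 31.5°C, against 1.47, 1.59 and 1.77 at 29.0°C, a difference of -0.63. After scaling it was -0.25 and did not pass. Histone H2A.V (AOSF622) had 0.58, 0.69 and 0.67 at 31.5°C, against 0.34, 0.47 and 0.41 at 29.0°C. Its difference of 0.24 stayed within a limit of 0.35, and its arrays did not overlap.

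XL-INCENP (AOSB594), a subunit of the chromosomal passenger complex that oversees chromosome segregation, had -0.11, 0.12 and 0.19 at 31.5°C, against 0.64, 0.73 and 0.78 at 29.0°C. Its difference of -0.65 was called in all 14 alternatives. Mitochondrial transcription factor b1 (AOSB1050) had -0.39, 0.20 and 0.40 at 31.5°C, against 0.67, 1.04 and 0.98 at 29.0°C. Its difference of -0.83 became -0.60 and did not pass without replicate 1 of 31.5°C. Zinc finger clones were 0 of 5 higher and 2 lower. The C2H2 clone AOSF578, of a class that often binds DNA, had -0.12, 0.16 and 0.03 at 31.5°C, against 0.67, 0.46 and 0.59 at 29.0°C, and its difference of -0.55 was called in all 14 alternatives. The RING-type clone AOSF1285, of a class common among ubiquitin ligases, had a difference of -0.78 that rested in part on replicate 1, with -1.27, -0.20 and -0.19 at 31.5°C, against 0.16, 0.39 and 0.14 at 29.0°C. Without that array it was -0.43 and still passed. Transcription regulators gave 2 higher and 1 lower clone of 10, and 2 and 0 after scaling. Chromodomain-helicase-7 (AOSB771), a chromatin remodeller, and a bZIP factor (AOSF512) were higher by 0.54 and 0.38, and a PHD-bromodomain regulator (AOSB586) was lower by -0.42. Of RNA-processing proteins, Serine arginine repetitive matrix 1 (AOSB1012), a splicing coactivator, was higher by 0.58, and the double-stranded RNA adenosine deaminase (AOSB1111), an RNA-editing enzyme, was lower by -0.55. Without replicate 1 of 31.5°C chromodomain-helicase-7, the PHD-bromodomain regulator and the adenosine deaminase did not pass.

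Clones of protein turnover went both ways. In the ubiquitin and proteasome group 1 of 10 was higher and 3 were lower, with a median difference of -0.42. Ubiquitin carboxyl-terminal hydrolase 24 (AOSF560), which removes ubiquitin from its targets, had -0.16, 0.15 and 0.16 at 31.5°C, against 0.53, 0.63 and 0.68 at 29.0°C. Its difference of -0.56 was called in all 14 alternatives. The ubiquitin ligase UHRF1 (AOSB949), known in mammals for maintaining DNA methylation, was lower by -0.45, and a non-ATPase subunit of the 26S proteasome (AOSB764) by -0.39. Without replicate 1 of 31.5°C neither passed. The riser was ubiquitin-like protein FUBI (CAON1748), which in mammals is made as a fusion with a ribosomal protein of the small subunit. It had -0.41, -0.48 and -0.33 at 31.5°C, against -1.15, -0.94 and -0.99 at 29.0°C, a difference of 0.62 called in all 14 alternatives. Peptidases and their inhibitors gave 3 higher and 0 lower clones of 6, and 1 and 0 after scaling. Peptidase M (CAON1197) had -0.92, -0.95 and -1.09 at 31.5°C, against -1.72, -1.75 and -1.80 at 29.0°C, a difference of 0.77 that was 0.37 and did not pass after scaling. A leishmanolysin family clone (AOSF1178), a metallopeptidase, was higher by 0.65 from a level above the pool, with 1.29, 1.38 and 1.46 at 31.5°C, against 0.56, 0.84 and 0.77 at 29.0°C. Scaling raised its difference to 0.74. Cathepsin B (AOSF1172), a lysosomal protease, was higher by 0.38, but after scaling 0.16 did not pass.

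No clone that the study assigned to the response to stress was higher at 31.5°C. Of 14 such clones 5 were lower (35.7%) and 9 did not pass, and the median difference was -0.26. After scaling 3 were lower, and the median was -0.07. A clone of a Senescence-associated protein (CAOO703) had the largest fall of any named clone, with 0.40, 0.57 and 0.74 at 31.5°C, against 1.57, 1.92 and 1.98 at 29.0°C. The difference was -1.25 with a limit of 0.39, a level 2.38-fold higher at 29.0°C, and it was called in all 14 alternatives. The second clone with this annotation (CAOO2479) had a difference of -0.03 within a limit of 0.51. Stress response protein NST1 (AOSB460) was lower by -0.45, a heavy metal detoxification protein (AOSF510) by -0.59, and Universal stress protein (AOSF1521) by -0.31. For Universal stress protein scaling enlarged the difference to -0.57, while without replicate 1 of 31.5°C it was -0.27 and did not pass. Drought-induced protein rdi (CAON1066) and Recombination repair protein 1 (AOSB392) had differences of 0.22 and 0.53, both within their limits of 0.87 and 0.59.

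The heat shock and chaperone group of 7 clones also holds a transcription factor, heat shock transcription factor 1. In this group 0 clones were higher and 1, Universal stress protein, was lower, and after scaling 0 were higher and 2 lower. Without replicate 1 of 31.5°C 1 was higher, the cis-trans isomerase FKBP1A (AOSF836) by 0.25, and 1 was lower, chaperonin Cpn60 (AOSF528) by -0.33. The clone of HSP90 (AOSF1451) had 0.98, 0.82 and 0.89 at 31.5°C, against 0.40, 0.65 and 0.66 at 29.0°C. The arrays did not overlap, but the difference of 0.33 was within a limit of 0.68. The noisy arrays of 27.5°C entered that limit, with an SD of 0.60 for this clone, and the 6 arrays compared gave 0.38, which the difference did not pass either. The 97 kDa heat shock protein (CAOO2018) had 0.75, 0.43 and 0.46 at 31.5°C, against 0.13, 0.31 and 0.61 at 29.0°C, with overlapping arrays and a difference of 0.20 within a limit of 0.72. Heat shock transcription factor 1 (CAON1605), the activator of heat shock genes, differed by 0.13 within a limit of 0.40. Activating transcription factor 5 (CAON612) differed by -0.01 within a limit of 0.41. Changes smaller than these limits could not be called.

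Antioxidant and redox clones gave 2 higher and 2 lower of 11, against 0 higher and 1 lower after scaling, and their median of 0.13 changed sign to -0.07 after scaling. The glutathione S-transferases, which conjugate glutathione to toxic compounds, moved apart. The Mu-type clone (AOSF1447) had -1.40, -1.49 and -1.42 at 31.5°C, against -2.22, -1.90 and -2.15 at 29.0°C, a rise of 0.65. After scaling this was 0.21 and did not pass. The other clone (AOSF483) had -0.67, -0.13 and 0.03 at 31.5°C, against 0.35, 0.36 and 0.38 at 29.0°C, a difference of -0.62. Sulfhydryl oxidase (AOSF787), which forms disulfide bonds, was higher by 0.25, and methionine sulfoxide reductase (AOSC865), which repairs oxidised methionine, was lower by -0.54, and after scaling neither passed, with 0.13 and -0.24. Catalase (AOSF550), soma ferritin (CAON1101), cytochrome p450 (CAON1879) and the peroxidasin-like protein (AOSF997) had differences of 0.16, 0.13, 0.21 and -0.13, all within their limits. With the spread of the 6 arrays compared, soma ferritin and cytochrome p450 passed upwards at limits of 0.07. For catalase the sign changed to -0.07 after scaling, and for soma ferritin to -0.16, which became -0.36 and passed downwards with replicate 1 of 31.5°C also left out.

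Of the calcium-binding proteins, calmodulin (AOSF573) was higher, with -1.25, -1.28 and -1.28 at 31.5°C, against -1.84, -1.77 and -2.03 at 29.0°C. The difference was 0.61 with a limit of 0.33, but 0.21 and within the limit after scaling. Calreticulin (AOSC448), a calcium-binding chaperone of the endoplasmic reticulum, had -1.41, -1.11 and -1.29 at 31.5°C, against -1.04, -0.998 and -1.08 at 29.0°C. Its difference of -0.23 was within a limit of 0.41, while after scaling -0.37 passed. Both clones lay far from the pool, where scaling moves values most. Proapoptotic caspase adaptor protein (AOSF761) and autophagy-related protein 16 (CAOO2671) had differences of -0.05 and -0.12 within their limits of 0.37 and 0.31.

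Secretion, cytoskeleton and retroelement clones were mixed. In the secretory group of 9 clones 3 were higher and 2 lower, against 0 and 1 after scaling. The clones annotated as subunits of Sec61, the channel into the endoplasmic reticulum, differed by 0.50 (CAOO1095), 0.32 (AOSF1278) and -0.58 (CAOO526). Only the fall of CAOO526 among these passed both after scaling and without replicate 1 of 31.5°C. Among 15 motor and cytoskeletal clones 2 were higher and 1 lower. The dynein light chain roadblock-type 2 (AOSF651) had 0.49, 0.49 and 0.43 at 31.5°C, against -0.20, 0.01 and -0.30 at 29.0°C, and its difference of 0.63 was called in all 14 alternatives. Myosin-VIIa (AOSF969) was lower by -0.37, and a second clone of it (CAON1295) had a difference of -0.27 within a limit of 0.58. A Tbc domain protein (AOSF1116), of a family that switches off Rab GTPases of vesicle traffic, had 0.65, 0.63 and 0.47 at 31.5°C, against 1.81, 1.72 and 1.63 at 29.0°C. Its difference of -1.14 was the second largest fall among named clones and was called in all 14 alternatives. The PDZ domain protein NHERF-2 (AOSB527), a scaffold of membrane transporters, was lower by -0.65. The 4 clones annotated as reverse transcriptase differed by 0.72 (CAON1787), 0.13 (AOSF584), -0.48 (AOSF1088) and -0.64 (AOSF1473), and AOSF584 did not pass. CAON1787 did not pass without replicate 1 of 31.5°C.

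The coral-specific SCRiPs, small cysteine-rich proteins, gave 1 higher and 0 lower clones of 5. SCRiP8 (AOSF810) had 0.15, 0.16 and 0.28 at 31.5°C, against -0.42, -0.21 and -0.03 at 29.0°C, a difference of 0.42 with a limit of 0.32. SCRiP2, SCRiP6, SCRiP5 and SCRiP1 had differences of 0.30, 0.28, -0.10 and -0.12 within their limits. Of the 4 clones that mark cell types or stages, 0 passed. LWamide neuropeptides (CAON1226) of neurons, the nicotinic receptor subunit (CAOO481), Piwi-like protein 4 (AOSF1434) of germ and stem cells and the major yolk protein (AOSF642) had differences of -0.22, 0.39, 0.27 and 0.04. In pooled whole embryos fewer cells of a type and less RNA per cell cannot be told apart.

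Without a functional name were 107 of the 196 clones past their limit. The 3 largest rises among them were AOSF1401, AOSF806 and AOSF1176. The difference of AOSF1401 was 1.54, with 1.52, -0.29 and -0.45 at 31.5°C, against -1.14, -1.21 and -1.49 at 29.0°C, so that replicate 1 stood far above its companions. Without it the difference was 0.91 and passed. AOSF806 had the same form, with 1.40, -0.45 and -0.28 at 31.5°C, against -1.15, -0.90 and -1.29 at 29.0°C, and 0.75 in place of 1.34 without replicate 1. After scaling neither clone passed. AOSF1176 did not depend on that array, with 0.12, -0.17 and 0.51 at 31.5°C, against -1.17, -1.08 and -0.80 at 29.0°C, a difference of 1.17 called in all 14 alternatives. The 3 largest falls, AOSF1010, AOSC1032 and AOSF1123, were called in all 14 alternatives too. AOSF1010, a predicted protein, had -0.17, 0.20 and 0.20 at 31.5°C, against 1.28, 1.38 and 1.22 at 29.0°C. AOSC1032 had -0.51, 0.23 and -0.31 at 31.5°C, against 1.05, 0.92 and 0.98 at 29.0°C. AOSF1123, also a predicted protein, had -1.56, -1.39 and -1.33 at 31.5°C, against -0.38, -0.26 and -0.43 at 29.0°C, and fell after 48 hours as well, by -1.27.

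More than 2-fold changes were few. Of 1217 clones 29 (2.38%) changed by more than 2-fold, 16 higher (1.31%) and 13 lower (1.07%), and 17 of the 29 also passed their limit, 8 higher and 9 lower. The count depended on which arrays were used and on their spread. Without replicate 1 of 31.5°C 15 clones changed by more than 2-fold (1.23%). Without replicate 2 or replicate 3 of 31.5°C 50 and 46 did, and without replicate 1, 2 or 3 of 29.0°C 23, 31 and 30. The 2 largest rises of all, singled out here after their values were seen, AOSF608 with 1.87 and AOSF1272 with 1.70, were 0.33 and 0.04 without replicate 1, and neither passed its limit of 2.82 or 3.27. After scaling 3 clones changed by more than 2-fold (0.247%).

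The calls that held under all 14 alternatives numbered 56, 38 higher and 18 lower, and 24 of these clones had a functional name. Among the higher ones were the ribosomal clones L44, S14, L14, AOSF1141, s18, L15 (AOSF736) and l35a (AOSF1193), elongation factor 1-alpha (AOSF1463), the ATP synthase lipid-binding protein, FUBI, the leishmanolysin clone, the dynein light chain, a chloramphenicol acetyltransferase clone (AOSC1094), NHP2-like protein 1, a coiled-coil domain protein (CAON1234, named after its values were seen) and Serine arginine repetitive matrix 1. The other clones annotated as chloramphenicol acetyltransferase differed by -0.15 (AOSC1103), -0.34 (CAON1217) and 0.51 (CAOO1050), all within their limits. Among the lower calls were the Senescence-associated protein, the Tbc domain protein, elongation factor 1-alpha (CAOO902), histone H1.0-A, XL-INCENP, ribosomal protein l3, ubiquitin carboxyl-terminal hydrolase 24 and the C2H2 zinc finger clone. Not all of these calls held with scaling and the omission of replicate 1 of 31.5°C together. Those lost included L14, s18, L15 (AOSF736), l35a (AOSF1193), AOSF1463, the ATP synthase lipid-binding protein, AOSC1094 and NHP2-like protein 1. Also lost were ubiquitin carboxyl-terminal hydrolase 24 and the C2H2 zinc finger clone.

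The embryos of 27.5°C, whose arrays after 12 hours lacked more clones and agreed less well, entered the limits but not the differences, and their values are set beside both groups without a test. With the spread taken from the 15 other arrays 263 clones passed, 144 higher and 119 lower. The medians of the 41 ribosomal clones were -0.89, -0.60 and -0.61 at 27.5°C, so that without scaling 29.0°C was the lowest of the 3 temperatures and 31.5°C lay close to 27.5°C. After scaling they were -0.57, -0.41 and -0.43 at 27.5°C, against -0.34, -0.65 and -0.72 at 31.5°C and -0.89, -0.84 and -0.84 at 29.0°C. There 29.0°C was still lowest, but replicates 2 and 3 of 31.5°C lay between the arrays of 27.5 and 29.0°C. The respiratory clones had medians of -0.17, -0.25 and -0.14 at 27.5°C, again closer to 31.5°C. After scaling these were -0.12, -0.16 and -0.09, against -0.03, -0.18 and -0.24 at 31.5°C and -0.36, -0.27 and -0.34 at 29.0°C. Of the 111 higher clones with values at 27.5°C, 67 had a mean there nearer to that of 31.5°C and 44 nearer to that of 29.0°C. Of the 77 lower clones, 36 were nearer to 31.5°C and 41 to 29.0°C.

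After 48 hours the same temperatures gave 201 of 1215 clones past their limit (16.5%), but with the opposite balance, 79 higher (6.5%) and 122 lower (10%). After scaling these were 132 and 167. The differences at the 2 time points share no arrays, but their limits share the spread of each clone. Across 1214 clones, which are not independent replicates, their differences had a correlation of -0.16, of -0.06 after scaling, and of -0.00 with replicate 1 of 31.5°C also left out. Of the 113 clones higher after 12 hours and tested at both times, 41 were lower after 48 hours (36.3%) and 15 higher (13.3%). After scaling 28 of 79 were lower later and 18 higher, and with replicate 1 of 31.5°C also left out 19 and 16 of 60. Of the 82 clones lower after 12 hours, 7 were higher after 48 hours (8.54%) and 16 lower (19.5%). After scaling 8 of 45 were higher later and 14 lower, and with replicate 1 of 31.5°C also left out 5 and 21 of 56.

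Of the 41 ribosomal protein clones 14 belonged to those 41 reversals. After 48 hours 0 of 41 were higher and 21 lower at 31.5°C, with a median difference of -0.48. Their medians after 48 hours were -0.40, -0.27 and -0.23 at 31.5°C, against -0.09, 0.29 and 0.24 at 29.0°C. The respiratory group likewise had 0 higher and 4 lower of 12 after 48 hours, with a median difference of -0.34. The fall of ribosomal clones after 48 hours was larger in number after scaling, 28 of 41, whereas the rise after 12 hours was smaller. A few clones kept one direction. Elongation factor 1-alpha (CAOO902), ribosomal protein l3 (AOSC713), the Tbc domain protein (AOSF1116) and histone H3.3 (AOSF1219) were lower at both times, by -0.87, -0.95, -0.64 and -0.60 after 48 hours, and chromodomain-helicase-7 (AOSB771) was higher at both, by 1.03 after 48 hours. The peroxidasin-like protein (AOSF997), within its limit after 12 hours, was higher by 2.59 after 48 hours.

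**Figure D5:**
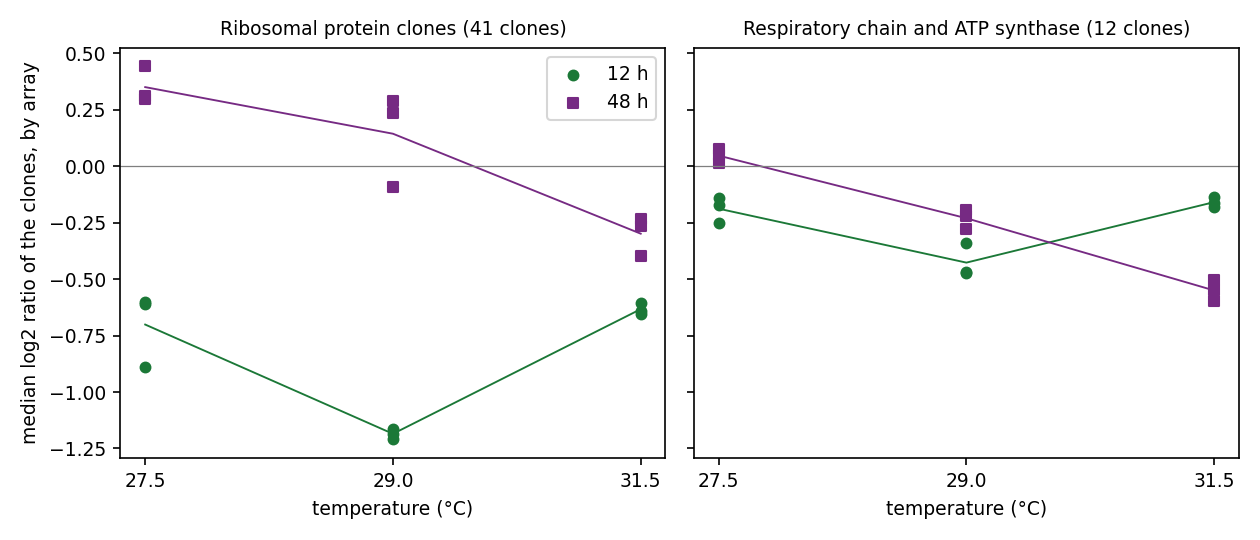
Median log2 ratio to the pooled reference (vertical axis) of the 41 ribosomal protein clones (left) and the 12 respiratory chain and ATP synthase clones (right) on each array, by temperature (horizontal axis, °C) and time after fertilization. Points are arrays and lines join the means of 3 technical arrays; after 12 hours both groups were lowest at 29.0°C, and after 48 hours lowest at 31.5°C.

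Since warm water can change the pace of development, the differences between 31.5 and 29.0°C were set beside the change that embryos of 27.5°C underwent between 12 and 48 hours. The differences have no array in common, but the limits of both comparisons use the same spread of each clone over all arrays, so their calls are not independent. The study also staged embryos of the same cultures a few hours after each sampling. By shape it found no difference in development among the temperatures, but considered changes that escape the eye probable. From 12 to 48 hours at 27.5°C 271 of 1101 clones rose (24.6%) and 229 fell (20.8%). The 271 rising clones had a median difference of 0.24 between 31.5 and 29.0°C after 12 hours, with 68 higher and 12 lower at 31.5°C. The 229 falling clones had a median of -0.23, with 11 higher and 39 lower. Of the 601 clones that neither rose nor fell past their limit, 32 were higher and 26 lower. Across the 1101 clones the correlation was 0.38, and 0.34 over the 1061 clones other than ribosomal ones. The relation was weaker once the spread of the arrays was made equal, and the balance of calls among the falling clones turned round. After scaling the Pearson correlation was 0.10 and Spearman's rho 0.20, against 0.43 before. The medians were 0.07 over 268 rising and -0.09 over 269 falling clones. Of these rising clones 33 were higher and 14 lower at 31.5°C, and of the falling ones 21 were higher and 15 lower. With replicate 1 of 31.5°C also left out the Pearson correlation was -0.12 and rho 0.04. Then 24 of 288 rising clones were higher and 32 lower, and 19 of 285 falling clones were higher and 14 lower.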

How the data were processed

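Per the study's methods, spot intensities of 1 sample channel (Cy5) and 1 pooled reference channel (Cy3) were integrated and background-subtracted with TIGR Spotfinder 2.2.4; the deposited scanner files hold these intensity values. For every clone on each array the table deposited by the authors gives a single value on the log2 scale, sample channel over reference channel, after print-tip LOWESS. Its values were compared with the intensities by quantiles only, since spots could not be matched to clones. Replicate 1 of 31.5°C matched less well (quantile correlation 0.966, slope 0.738) than the other 5 arrays compared (slopes 0.941 to 0.992). With the ratio inverted the quantile correlations of the 6 arrays were still 0.903 to 0.955. This comparison therefore bears on the scale and says little about the direction, which was taken from the description of the values. No dyes were swapped, and how duplicate spots were combined is not given in the sources used here.

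The series table was used without further normalization. For each clone a linear model of 6 conditions over 18 arrays gave 1 spread, and non-overlapping 95% intervals were counted, after the criterion of the methods, which used another estimator. At least 2 of 3 arrays per group were required. With 1 RNA sample per group the units are technical arrays, and limma's moderated test (Benjamini-Hochberg, 0.05) served only as an alternative count. The members, gene lists and comparisons were chosen with earlier results of these data known.

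Clones were named by rule: among clones with a functional name the 10 that rose most and the 10 that fell most, and the 3 of each kind among the others, that passed their limit with arrays all above or all below; clones with identifiers in the article; SCRiP, histone and zinc finger clones; members of the gene lists past their limit; and clones that share an annotation with one of these. The markers are named by list, and AOSF608, AOSF1272, CAON1234, AOSF836 and AOSF528 were named after their values were seen. Clone names come from the study's annotation table, whose fold changes were not used. No sequences of the clones were used here.

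Methods were tested on simulated data. Alternatives were centring, scaling to 1 median absolute deviation, other array filters, a block for the replicate number, linear ratios, other sources of the spread, limma, leaving out each array, and the spots of the scanner files after loess or median centring, also without the dimmest 20%; scaling together with leaving out replicate 1 of 31.5°C was chosen after seeing the data. Software was Python 3.11.15 with scipy 1.17.1, matplotlib 3.10.9, pandas 2.3.3 and numpy 2.4.6, and R 4.3.3 with limma 3.58.1.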

Additional observations from a re-analysis of the deposited data

Results flagged for a closer look

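Of the 92 named clones past their limit after 12 hours, 46 had all 3 arrays of 31.5°C on one side of those of 29.0°C after 12 hours and on the other side after 48 hours. The change between the time points was not tested, since each temperature and time point was 1 RNA sample, and 29 of the 46 passed their limit at both times. Over all clones, arrays lay above after 12 hours and below after 48 hours in 84, the reverse in 80, above at both in 36 and below at both in 46. For scale, of 1217 tested clones 242 had their arrays above and 252 below after 12 hours. On unscaled arrays a change of side was thus more frequent than a kept side over all clones, not only in the named ones. Sides were not counted after scaling, but calls past the limit at both times were. Unscaled, 41 clones turned from higher to lower, 7 from lower to higher, 15 stayed higher and 16 stayed lower. After scaling these were 28, 8, 18 and 14. With replicate 1 of 31.5°C also left out they were 19, 5, 16 and 21, so that a change was no longer the more frequent.

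Ribosomal protein clones numbered 17 of the 46, all higher at 31.5°C after 12 hours and lower after 48 hours. The log2 differences between 31.5 and 29.0°C after 12 and after 48 hours were 0.38 and -0.39 for S16 (CAON1044), 0.51 and -0.50 for L11 (AOSC809), 0.53 and -0.47 for L28 (AOSF1378), 0.57 and -0.47 for S8 (CAOO2216), 0.58 and -0.65 for l26 (AOSF1009), 0.60 and -0.32 for S10 (AOSC475), 0.61 and -0.50 for S19 (AOSF1387), 0.62 and -0.49 for L35a (CAON1901), 0.63 and -0.46 for L27 (AOSF1280), 0.63 and -0.65 for S15a (AOSF1356), 0.67 and -0.56 for l35a (AOSF1193), 0.72 and -0.40 for L15 (AOSF736), 0.77 and -0.62 for s18 (AOSC1015), 0.77 and -0.57 for L15 or S27 (AOSF1141), 0.89 and -0.52 for L18 (AOSC1063), 0.92 and -0.43 for S14 (AOSF1155) and 0.92 and -0.65 for S4 (AOSF1416).

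Of the clones of respiration and translation, the differences after 12 and after 48 hours were 0.37 and -0.36 for Cytochrome b5 (CAON1668), 0.45 and -0.32 for Mitochondrial ATP synthase f chain (AOSC720), 0.52 and -0.44 for ATP synthase subunit b, mitochondrial (CAON1087), 0.61 and -0.58 for NHP2-like protein 1 (AOSF1077), 0.62 and -0.48 for Ubiquitin-like protein FUBI (CAON1748), 0.69 and -0.52 for Ubiquinol-cytochrome c reductase hinge protein (CAOO440), 0.71 and -0.38 for Probable ribosome biogenesis protein RLP24 (CAON1092), 0.84 and -0.70 for Elongation factor 1-alpha (AOSF1463) and 0.86 and -0.87 for ATP synthase lipid-binding protein, mito. (AOSC391). Other clones of the same direction had 0.25 and -0.33 for Sulfhydryl oxidase (AOSF787), 0.32 and -0.17 for Protein transport protein Sec61 subunit gamma (AOSF1278), 0.38 and -0.30 for Cathepsin B (AOSF1172), 0.40 and -0.37 for Translocon-associated protein subunit beta (AOSF1300), 0.42 and -0.24 for SCRiP8 (AOSF810), 0.56 and -0.31 for Similar to polyprotein (AOSF1282), 0.61 and -0.66 for Calmodulin (AOSF573), 0.63 and -0.27 for Dynein light chain roadblock-type 2 (AOSF651), 0.65 and -0.59 for Glutathione S-transferase Mu (AOSF1447) and 0.72 and -0.51 for Chloramphenicol acetyltransferase (AOSC1094).

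Another 10 clones had their 31.5°C arrays below those of 29.0°C first and above them later, with -1.25 and 0.25 for Senescence-associated protein (CAOO703), -0.87 and 0.52 for Histone H1.0-A (AOSB632), -0.65 and 0.42 for XL-INCENP protein (AOSB594), -0.56 and 0.31 for Ubiquitin carboxyl-terminal hydrolase 24 (AOSF560), -0.54 and 0.25 for Methionine sulfoxide reductase (AOSC865), -0.48 and 0.28 for Reverse transcriptase (AOSF1088), -0.45 and 0.06 for Stress response protein NST1 (AOSB460), -0.45 and 0.71 for E3 ubiquitin-protein ligase UHRF1 (AOSB949), -0.37 and 0.55 for Myosin-VIIa (AOSF969) and -0.33 and 0.16 for Dev. regulated GTP binding protein 1 (AOSC887). Of these, histone H1.0-A, UHRF1 and Myosin-VIIa passed their limit at both times.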

How the results depend on the processing

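The limits cover hybridisation error only, and differences between cultures were not measured. In place of 196 calls, 124 were made after scaling to 1 median absolute deviation (45 lower), where 89 of the 196 were lost and 17 clones were added, 130 with the spread of the 9 arrays of 12 hours (49 lower), and 117 with scaling and without replicate 1 of 31.5°C (61 higher). The spots, of which there are more than clones, gave 402 calls after loess (278 higher, 124 lower) and 384 without the dimmest 20% (268 higher). The 29 changes over 2-fold became 3 after scaling, 4 with replicate 1 also left out, 15 to 50 without 1 array, and 123, 95 and 130 among spots after loess, after loess without the dimmest 20% and after median centring. The 22 higher ribosomal clones became 7 after scaling, 12 with linear ratios and 3 with scaling and without replicate 1. The correlation with the change from 12 to 48 hours became 0.10 after scaling and -0.12 with replicate 1 also left out, where the difference of AOSF1278 turned to -0.10. The cause was not tested. Leaving out 1 array gave 158 to 199 calls. Spots were a median of 4.45 to 8.29 times as bright as their background, which with 3 arrays per temperature limits what can be detected.

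Replicate numbers did not pair the arrays: deviations of same-numbered arrays correlated at 0.01 to 0.04. With a block for the number 203 clones were called, 115 higher and 88 lower. Of the 92 named clones past their limit, 27 kept their call in all 14 alternatives, and of the 34 named clones within their limit 13 were called in some alternative.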

Other observations

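Clone names carry prefixes whose meaning is not given in the sources used here, and the balance of calls differed among them. Of 77 clones with the prefix AOSB, 3 were higher and 15 lower at 31.5°C, with a median difference of -0.30, and after scaling 3 were higher and 7 lower, with a median of -0.11. Of 137 clones with the prefix AOSC 22 were higher and 7 lower, of 561 with AOSF 59 and 41, of 321 with CAON 24 and 9, and of 120 with CAOO 6 and 9. The difference among prefixes was not tested.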
